A study of Mus musculus with 18 samples.

Results

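The 38 genes described here act in the last steps of cell division: they build the kinetochore, run the spindle checkpoint, order mitotic entry, compact chromosomes and cut the daughter cells apart. They were taken as a list of gene names chosen with earlier results of these data known. Counts over the list beside shares of all genes are therefore a description and no separate test. Every non-control array probe whose accession maps to 1 of these genes was used. The array carries 53 such probes for 37 of the 38 genes, out of 17929 genes tested in all. No probe was matched by accession to Prc1, which bundles antiparallel microtubules at the midzone, so it has no level here. Thyroids came from C57BL/6 mice aged 1 month. The groups were 4 Glis3KO2 (KO2) and 4 wild-type (WT) mice kept on a low-iodine diet for 6 days, and 5 KO2 and 5 WT mice on a normal diet. Mice of all groups had been weaned at 3 weeks. KO2 mice carry a targeted allele of Glis3, which encodes a zinc finger transcription factor. Neither the deleted part of Glis3, nor whether the deletion is limited to 1 tissue, nor the sex of the mice is given in the sources used here.

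During mitosis the kinetochore, assembled on centromeric chromatin, ties each chromosome to spindle microtubules. Unattached kinetochores hold back the anaphase-promoting complex through the spindle checkpoint, and once all are attached the complex triggers chromosome separation, after which a contractile ring and the midbody divide the cell. Most of these genes are transcribed only late in the cell cycle, so in a tissue such as the thyroid, whose follicular cells rarely divide at rest and are driven to grow by thyrotropin, their RNA marks dividing cells. Shortage of iodine, from which thyroid hormone is made, raises thyrotropin in normal animals.

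Levels are log2 processed signals minus the array's 75th percentile, so 0 is the level of the 75th percentile and −1 lies 2-fold below it. Each gene is read by its brightest probe, and levels of different genes are not compared, since probes differ in brightness. The share of spots well above background per array lay between 60.1% and 90.6%, and the median signal between 45.0 and 191.5. The highest of these belonged to WT replicate 2 of the low-iodine diet, beside a highest value of 85.5 on the other arrays. Normal-diet and low-iodine arrays were scanned on different scanners and lie on different slides, so a diet effect and an array-set effect cannot be told apart, while KO2 and WT were balanced on each slide. Glis3 had levels of −4.06 to −1.49 in KO2 and −1.60 to −0.74 in WT thyroids on the low-iodine diet, and of −5.46 to −4.16 in KO2 and −6.08 to −4.79 in WT thyroids on the normal diet. It did not pass the test on either diet (adjusted p = 0.0619 and 0.732), and its probe may lie outside the deleted part, in which case it checks nothing about the labels. The mean of 7 thyroid follicular cell markers ran from 2.69 to 3.96 over all 18 arrays.

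On the low-iodine diet these genes were far lower in KO2 thyroids, with few exceptions. Of 37 measured genes 35 were lower in KO2 (limma, adjusted p under 0.05) and 0 were higher, where 7.18% of all genes tested were called lower and 7.81% higher. The median log2 difference between KO2 and WT was −4.11, beside −0.02 over all genes. At least 8-fold differences were fitted for 26 of the 35. For 36 of the 37 genes every KO2 array lay below every WT array, where 9.1% of all genes did so and 10.6% lay wholly above. All 37 were lower in KO2 on both slides of this diet, which the lack of overlap fixes for 36 of them. Medians were −3.99 on slide 4 and −4.30 on slide 5. The mean level over the 37 genes was −2.98, −3.30, −3.36 and −3.39 in KO2 replicates 1 to 4, against 0.75, 0.63, 1.00 and 0.77 in WT replicates 1 to 4. All 4 KO2 arrays lay far below all 4 WT arrays, and replicates of a genotype lay close together. Cdc25c and Mxd3 were the genes that did not pass by their brightest probes. A second, dimmer probe of each was called lower (limma over 26519 probes), at −5.52 for Cdc25c (adjusted p = 8.35e-06) and −2.09 for Mxd3 (adjusted p = 0.0320). These arrays measure whole glands, in which fewer dividing cells and less RNA per cell cannot be told apart.

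**Figure D1:**
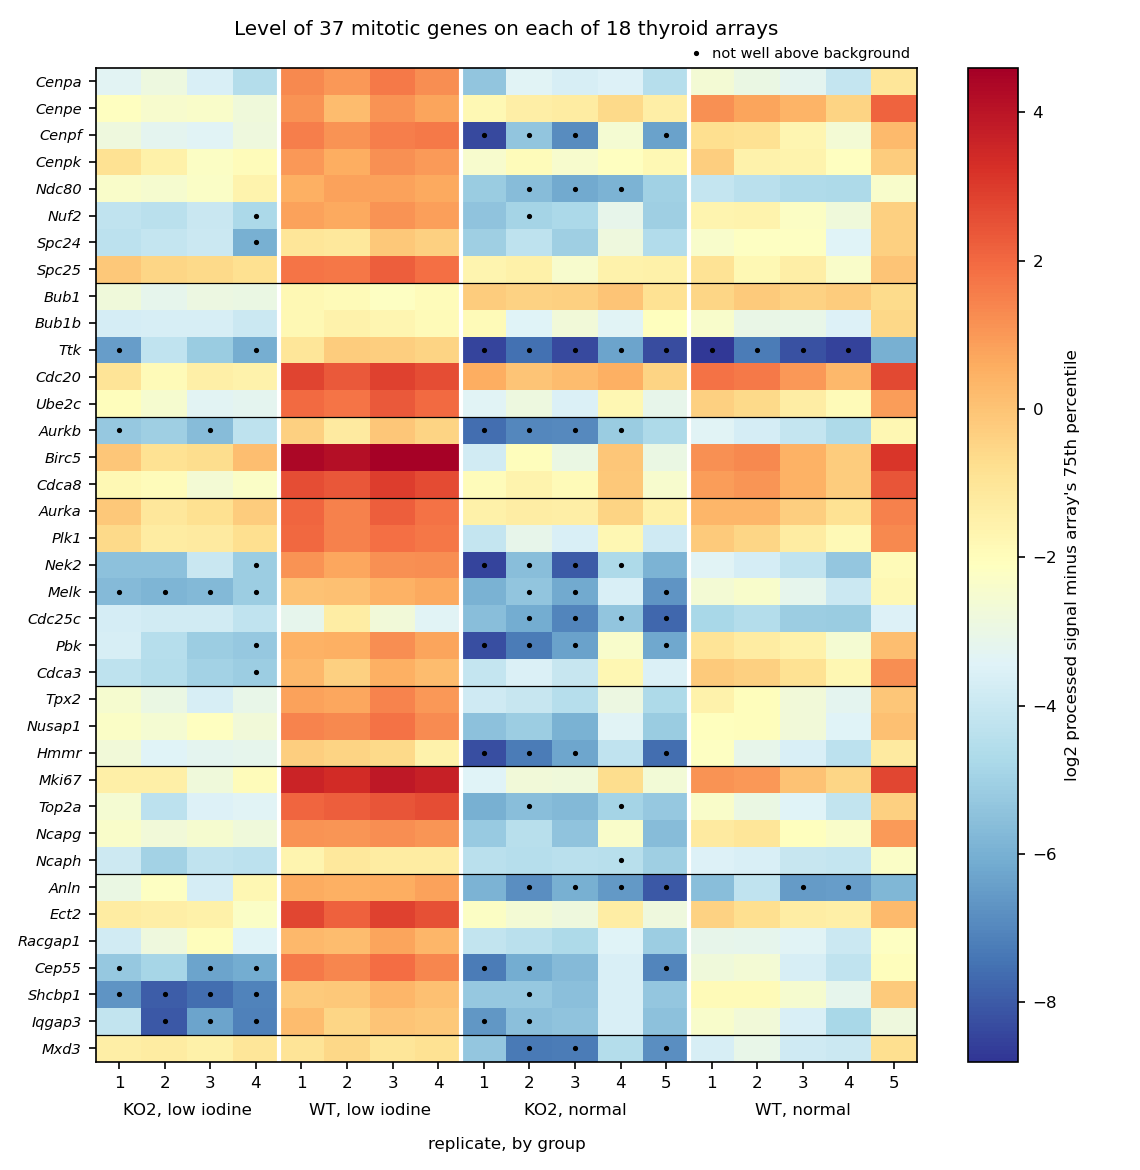
Level of each of 37 genes (rows, grouped by role and separated by lines) on each of 18 arrays (columns, by group and replicate), as log2 processed signal minus the array's 75th percentile. Dots mark spots not well above background; the WT low-iodine columns hold no dot.

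With iodine supplied, most of these genes were again lower in KO2 thyroids, with overlap between the genotypes for most. Of the 37, 24 were called lower and 0 higher, where 0.876% of all genes were called lower and 0.513% higher, and 13 did not pass. The median log2 difference was −2.26, beside 0.05 over all genes. Only 11 genes had no overlap between the KO2 and WT arrays, where 1.63% of all genes tested were lower and 1.89% higher without overlap. The mean level over the 37 genes was −4.69, −4.25, −4.55, −2.92 and −4.52 in KO2 replicates 1 to 5, against −1.79, −1.89, −2.48, −3.06 and −0.51 in WT replicates 1 to 5. KO2 replicate 4 stood above the other KO2 arrays and inside the WT range, and WT replicate 5 stood highest. For 28 genes KO2 replicate 4 was the highest KO2 array, and for 34 genes WT replicate 5 was the highest WT array. Without KO2 replicate 4, left out after it was seen to stand high, 29 genes had no overlap. That choice raises the count by itself, and the share of all genes was not computed. With slide as a block 19 genes were called, beside 123 of all 17929 genes called lower. All 24 calls were lower in KO2 on each of the 3 slides of this diet, whose medians over the 37 genes were −2.53, −1.65 and −2.91. The calls came from these same arrays, so this tally is no separate test. Slide 1 holds only WT replicate 1 and KO2 replicate 2.

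**Figure D2:**
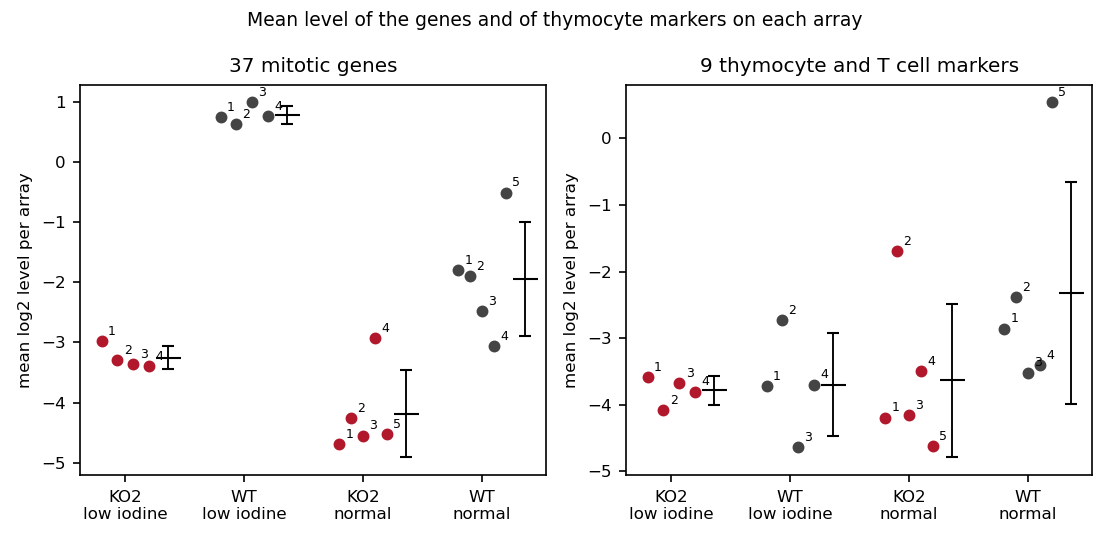
Mean log2 level of the 37 genes (left) and of 9 thymocyte and T cell markers (right) on each array, by group; points are arrays numbered by replicate, and bars give the group mean and SD (n = 4 for low iodine, 5 for normal). KO2 and WT arrays are separate for the 37 genes on the low-iodine diet, where KO2 spans −3.39 to −2.98 and WT 0.63 to 1.00.

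The normal-diet calls depend on the spread shared with the low-iodine arrays. A fit of the 10 normal-diet arrays alone gave the same differences but called 0 of the 37 genes (limma), with adjusted p from 0.0725 to 0.990 and 32 genes at an unadjusted p under 0.05. That fit called 3 of all 17929 genes. Most thymocyte and T cell markers were also lower in KO2 on the normal diet, without a call: 9 of 12 were measured, 0 were called and 8 were lower (median −1.71). Their mean was −4.62 to −1.70 over KO2 arrays and −3.52 to 0.54 over WT arrays, highest in WT replicate 5. Among KO2 arrays this marker mean did not follow the 37 genes. It was −1.70 in replicate 2, where the 37 genes had a mean of −4.25, and −3.50 in replicate 4, where they had −2.92. The 9 measured markers were well above background on 10 to 18 of the 18 arrays, where 4 were needed for a probe to be kept. Rag2 had a probe that was not kept, and Cd8b1 and Ptcra had no matched probe. With that mean as a covariate 15 genes were called on the normal diet, beside 52 of all 17929 genes called lower. Without KO2 replicate 4 and WT replicate 5 together 25 were called, beside 372 of all genes. On the normal diet 3 of 7 thymic epithelium markers were called lower in KO2, with means of −4.10 to −1.10 in KO2 and −3.48 to 1.00 in WT, and 0 of 7 on low iodine. On the low-iodine diet the thymocyte mean was −4.07 to −3.58 in KO2 and −4.64 to −2.73 in WT (median −0.01 over 9 markers, 0 called). With it as a covariate 35 genes were called there, beside 1259 of all 17929 genes called lower. Of 6 endothelial markers 3 were called lower in KO2 on low iodine and 5 were negative. Cldn5 was positive and not called (0.79 ± 0.27 SE, limma, adjusted p = 0.0550). Endothelial means were 0.66 to 0.85 in KO2 and 1.38 to 1.53 in WT. Fibroblast markers were split there, with 2 of 6 called lower and 1, Dcn, called higher (0.99 ± 0.23 SE, limma, adjusted p = 0.00762). Pdgfra was positive and not called (0.41 ± 0.26 SE). Fibroblast means were −1.08 to −0.47 in KO2 and 0.01 to 0.64 in WT. On the normal diet 1 of the 6 was called lower, Col14a1 (−1.75 ± 0.37 SE, adjusted p = 0.0240), and fibroblast means were 0.58 to 2.07 in KO2 and 1.96 to 2.53 in WT. Of 6 macrophage markers 0 were called on low iodine (limma), where 2 had an unadjusted p under 0.05, and all 6 fitted differences were negative, with means of −1.64 to −1.0 in KO2 and −0.99 to −0.44 in WT. Of 5 C cell markers 2 were higher, and of 4 erythroid markers 1 was lower. All 8 skeletal muscle markers were lower in KO2 on low iodine (median −2.08) and higher on the normal diet (median 2.39), with 0 called on either (limma) and 0 at an unadjusted p under 0.05. The part of these markers other than thymocytes in the results was not tested.

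**Figure D3:**
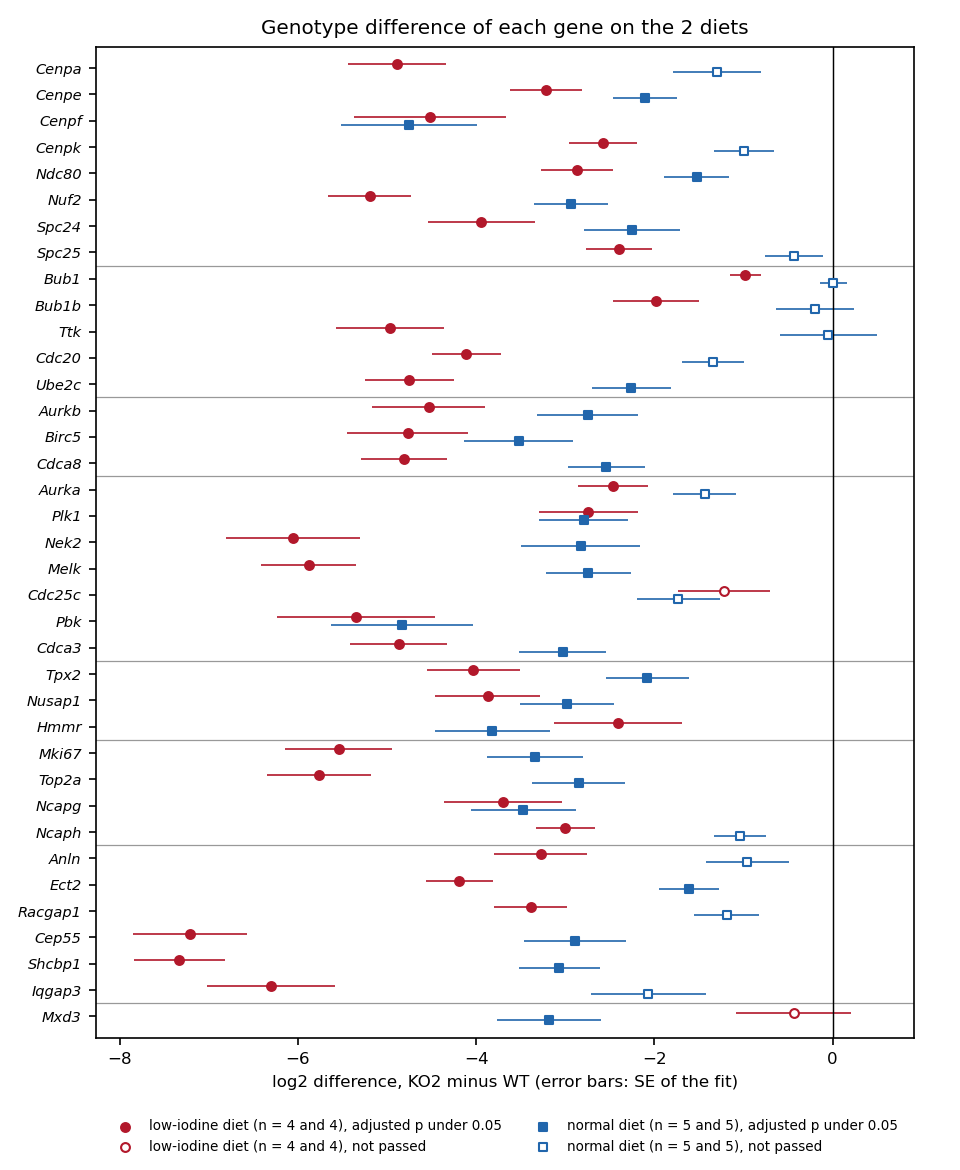
Log2 difference between KO2 and WT for each of 37 genes on the low-iodine diet (circles) and the normal diet (squares), with the SE of the fit; filled symbols passed an adjusted p of 0.05. Each gene is read by its brightest probe. Only Cdc25c and Mxd3 have open circles, while 13 genes have open squares.

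The promoters of these genes are shown for the letters they share. RefSeq windows (GRCm38.p6, 250 bases before to 50 after the start) were at hand for 32 of the 38 genes. TTTGAA, the core of the cell cycle genes homology region known from promoters of late cell cycle genes, was found on either strand within 50 bases of the start in 21 of the 32 (65.6%). Among genes tested on the arrays with a window, 4.13% of 14250 hold it there, and among all 32851 windows 4.94%. CCAAT, the core of the box bound by NF-Y, was found anywhere in the window in 22 of the 32 (68.8%), against 42.1% of genes tested. The motifs were searched on both strands and can share at most 1 base at their ends. Both conditions were met by 17 genes (53.1%), against 1.90% of genes tested. The following 150 bases run from 120 before the start and are written 5′ to 3′ on the gene's strand, with both motifs in capitals, as TTCAAA or ATTGG where they lie on the opposite strand. Cenpa, Ube2c, Cdc20, Hmmr, Top2a, Ncapg and Racgap1 stand for different roles, and Nuf2 and Mxd3 hold neither motif.
Cenpa (chr5:30666766-30666915, plus strand): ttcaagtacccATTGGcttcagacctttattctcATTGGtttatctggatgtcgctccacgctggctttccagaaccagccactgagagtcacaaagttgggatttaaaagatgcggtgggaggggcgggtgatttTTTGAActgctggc
Ube2c (chr2:164769809-164769958, plus strand): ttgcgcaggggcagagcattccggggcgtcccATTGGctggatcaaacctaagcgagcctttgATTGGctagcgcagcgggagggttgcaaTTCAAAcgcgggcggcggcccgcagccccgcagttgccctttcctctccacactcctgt
Cdc20 (chr4:118437314-118437463, minus strand): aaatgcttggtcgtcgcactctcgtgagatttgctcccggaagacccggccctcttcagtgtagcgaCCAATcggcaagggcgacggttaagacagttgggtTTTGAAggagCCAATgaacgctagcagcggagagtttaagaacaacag
Hmmr (chr11:40733408-40733557, minus strand): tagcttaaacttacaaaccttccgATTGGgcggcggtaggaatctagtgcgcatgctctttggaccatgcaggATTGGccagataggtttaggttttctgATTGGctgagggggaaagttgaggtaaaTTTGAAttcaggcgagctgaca
Top2a (chr11:99024160-99024309, minus strand): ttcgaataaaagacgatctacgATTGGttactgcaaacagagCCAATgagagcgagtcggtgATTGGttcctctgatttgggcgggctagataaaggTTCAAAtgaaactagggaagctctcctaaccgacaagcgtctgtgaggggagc
Ncapg (chr5:45669805-45669954, plus strand): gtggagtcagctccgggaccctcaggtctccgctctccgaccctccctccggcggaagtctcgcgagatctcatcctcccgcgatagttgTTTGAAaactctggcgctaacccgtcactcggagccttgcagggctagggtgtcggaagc
Racgap1 (chr15:99651627-99651776, minus strand): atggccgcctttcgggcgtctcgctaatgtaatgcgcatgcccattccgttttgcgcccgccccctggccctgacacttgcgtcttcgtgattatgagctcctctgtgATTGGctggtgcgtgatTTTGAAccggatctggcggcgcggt
Nuf2 (chr1:169531435-169531584, minus strand): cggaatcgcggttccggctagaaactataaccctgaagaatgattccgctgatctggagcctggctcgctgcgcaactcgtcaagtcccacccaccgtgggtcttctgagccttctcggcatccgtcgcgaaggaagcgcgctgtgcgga
Mxd3 (chr13:55329702-55329851, minus strand): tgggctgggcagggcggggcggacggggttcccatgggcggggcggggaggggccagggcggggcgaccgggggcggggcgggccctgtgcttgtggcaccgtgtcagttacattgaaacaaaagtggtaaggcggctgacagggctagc
In these windows TTTGAA begins 18 bases before the start in Cdc20 and 30 before it in Ncapg, and lies just past the start in Cenpa, Hmmr and Racgap1, while Ube2c and Top2a carry it on the opposite strand upstream. A match is a description and shows no binding. On low iodine genes with and without these letters had close medians. The 20 measured genes with TTTGAA near the start had a median of −4.15 on low iodine and −1.84 on the normal diet. The 11 measured genes with a window but no TTTGAA there had medians of −3.87 and −2.83. Of these 11, 10 were called lower on low iodine (Mxd3 was not) and 8 on the normal diet, against 20 and 11 of the 20 with it.

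The outer kinetochore and centromere genes fell as a block on low iodine, with 8 of 8 called and a median of −3.58. Cenpe, a motor that carries chromosomes along microtubules, had levels of −2.12, −2.45, −2.36 and −2.75 in KO2 replicates 1 to 4, against 1.11, 0.18, 1.12 and 0.76 in WT replicates 1 to 4. Every KO2 array was below every WT array, and the difference was −3.21 ± 0.40 (SE, adjusted p = 7.06e-05). Normal-diet levels of Cenpe were −1.80, −1.40, −1.28, −0.63 and −1.41 in KO2 replicates 1 to 5, against 1.17, 0.75, 0.40, −0.44 and 2.12 in WT, again without overlap (−2.11 ± 0.36 SE, adjusted p = 0.00962). Spc25, which with Spc24 anchors the NDC80 complex to chromatin, read −0.16, −0.50, −0.60 and −0.83 in KO2 and 1.72, 1.67, 2.24 and 1.87 in WT on low iodine. That is a gap of −2.40 ± 0.37 (SE, adjusted p = 3.87e-04) with no overlap. Normal-diet levels of Spc25 were −1.68, −1.50, −2.45, −1.54 and −1.49 in KO2 and −0.91, −1.80, −1.38, −2.36 and −0.05 in WT, intermingled, and did not pass (−0.43 ± 0.33 SE, adjusted p = 0.648).

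Cenpa, the histone H3 variant that marks centromeres, had low-iodine levels of −3.35, −2.88, −3.62 and −4.55 in KO2 and 1.31, 1.00, 1.63 and 1.22 in WT (−4.89 ± 0.55 SE, adjusted p = 2.92e-05). All KO2 arrays were lower, by 29.6-fold on the fitted scale. Normal-diet levels of Cenpa were −5.38, −3.39, −3.66, −3.49 and −4.50 in KO2 and −2.60, −2.96, −3.22, −4.11 and −1.04 in WT, overlapping, at −1.30 ± 0.49 (SE, adjusted p = 0.242). Cenpk, a subunit of the inner kinetochore network, had low-iodine levels of −0.89, −1.51, −2.21 and −1.98 in KO2 and 1.01, 0.53, 1.20 and 0.97 in WT (−2.57 ± 0.38 SE, adjusted p = 2.87e-04). Normal-diet levels of Cenpk were −2.42, −1.99, −2.43, −2.13 and −1.82 in KO2 and −0.27, −1.54, −1.62, −2.15 and −0.23 in WT (−1.0 ± 0.34 SE, adjusted p = 0.189), with overlap. The interaction passed for Cenpa (−3.59 ± 0.73 SE, adjusted p = 0.0242) and not for Cenpk (−1.58 ± 0.51 SE, adjusted p = 0.154).

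The other 4 kinetochore genes of the set passed on both diets by their brightest probes. Nuf2, which pairs with Ndc80 to grip microtubules, differed by −5.19 ± 0.46 (SE, adjusted p = 5.35e-06) on low iodine and −2.94 ± 0.42 (SE, adjusted p = 0.00371) on the normal diet, without overlap on either. Ndc80 itself differed by −2.87 ± 0.41 (SE, adjusted p = 1.97e-04) and, with spots above background on 2 of 5 KO2 arrays, by −1.53 ± 0.36 (SE, adjusted p = 0.0470) on the normal diet, a call lost in 21 of 30 alternatives. For Cenpf, a large kinetochore protein of late interphase and mitosis, the differences were −4.52 ± 0.85 (SE, adjusted p = 0.00204) on low iodine and −4.75 ± 0.76 (SE, adjusted p = 0.00713) on the normal diet. The normal-diet value rests on dim spots, as 1 of 5 KO2 arrays was well above background. A second Cenpf probe, well above background on 8 arrays, gave −2.12 ± 0.57 (SE) on low iodine. On the normal diet that probe gave −1.09 ± 0.51 (SE) and did not pass (limma over 26519 probes, adjusted p = 0.404). Spc24 fell by 3.94 ± 0.60 (SE) on low iodine and by 2.25 ± 0.54 (SE, adjusted p = 0.0494) on the normal diet, where 23 of 30 alternatives lost the call.

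All 5 spindle checkpoint and anaphase-promoting complex genes of the set were lower in KO2 on low iodine (median −4.11). On the normal diet 1 of the 5 was called lower (median −0.20). The interaction was called for Bub1, Ttk and Cdc20, and not for Bub1b (−1.78 ± 0.65 SE, adjusted p = 0.217) or Ube2c (−2.49 ± 0.67 SE, adjusted p = 0.0830). The call for Bub1 was lost in 25 of 29 alternatives. Cdc20, the activator of the anaphase-promoting complex that the checkpoint inhibits, had low-iodine levels of −0.95, −1.94, −1.45 and −1.56 in KO2 and 2.77, 2.31, 2.83 and 2.61 in WT. KO2 arrays were all lower, by 17.3-fold (−4.11 ± 0.39 SE, adjusted p = 7.51e-06). Normal-diet levels of Cdc20 were 0.53, −0.05, 0.19, 0.49 and −0.44 in KO2 and 1.82, 1.63, 1.00, 0.27 and 2.71 in WT; the lowest WT array, replicate 4, lay among the KO2 arrays, and the gene missed the threshold (−1.34 ± 0.35 SE, adjusted p = 0.0679). Ube2c, the ubiquitin-conjugating enzyme of the complex, read −2.05, −2.49, −3.32 and −3.20 in KO2 and 1.95, 1.72, 2.32 and 1.94 in WT on low iodine (−4.75 ± 0.50 SE, adjusted p = 1.75e-05). Normal-diet levels of Ube2c were −3.40, −2.88, −3.52, −1.77 and −3.13 in KO2 and −0.37, −0.63, −1.37, −1.94 and 0.90 in WT, where KO2 replicate 4 overlapped WT replicate 4. Ube2c passed there too, at −2.26 ± 0.44 (SE, adjusted p = 0.0161).

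The checkpoint genes Bub1, Bub1b and Ttk did not pass on the normal diet. Bub1, a kinase that docks checkpoint proteins at the kinetochore, had low-iodine levels of −2.74, −3.19, −2.89 and −2.95 in KO2 and −1.79, −1.89, −2.18 and −2.0 in WT (−0.98 ± 0.17 SE, adjusted p = 0.00115). Its fall was small for the group yet without overlap. Normal-diet levels of Bub1 were −0.25, −0.42, −0.37, −0.05 and −0.86 in KO2 and −0.48, −0.20, −0.41, −0.24 and −0.66 in WT, with all WT arrays inside the KO2 range (0.01 ± 0.15 SE, adjusted p = 0.991). The second Bub1 probe disagreed in sign on the normal diet, at −3.52 ± 0.65 (SE, adjusted p = 0.0134 over 26519 probes), and gave −5.70 ± 0.73 (SE) on low iodine. It was well above background on 10 of 18 arrays, and which probe reads the transcript better was not tested. Over the mean of both probes Bub1 was called lower on the normal diet (−1.76, adjusted p = 0.0189). Bub1b, the checkpoint protein BubR1, differed by −1.98 ± 0.49 (SE, adjusted p = 0.0114) on low iodine and −0.20 ± 0.43 (SE, adjusted p = 0.912) on the normal diet. Ttk, the kinase Mps1 that starts checkpoint signalling, differed by −4.97 ± 0.60 (SE, adjusted p = 5.23e-05) on low iodine. On the normal diet Ttk was well above background on 0 of 5 KO2 and 1 of 5 WT arrays, so its fitted difference of −0.05 says little.

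All 3 set members in the chromosomal passenger complex, which corrects faulty attachments and later directs cytokinesis, were lower in KO2 on both diets. Incenp, the scaffold gene of the complex and outside the set, was lower on low iodine (−1.97 ± 0.27 SE, limma, adjusted p = 1.79e-04). On the normal diet Incenp did not pass (−0.43 ± 0.25 SE, limma, adjusted p = 0.487). Birc5, survivin, had low-iodine levels of −0.09, −0.86, −0.72 and 0.14 in KO2 and 4.35, 4.14, 4.54 and 4.52 in WT, and fell 27.3-fold (−4.77 ± 0.68 SE, adjusted p = 2.20e-04). Normal-diet levels of Birc5 were −3.78, −2.03, −2.99, −0.08 and −2.95 in KO2 and 1.19, 1.34, 0.42, −0.25 and 3.1 in WT (−3.52 ± 0.61 SE, adjusted p = 0.00986). KO2 replicate 4 lay just above WT replicate 4 there, while the other 4 KO2 arrays lay well below every WT array. Cdca8, borealin, read −1.80, −1.98, −2.61 and −2.29 in KO2 and 2.60, 2.36, 2.94 and 2.65 in WT on low iodine (−4.81 ± 0.48 SE, adjusted p = 1.21e-05). Normal-diet levels of Cdca8 were −1.97, −1.62, −1.92, −0.14 and −2.46 in KO2 and 0.91, 1.06, 0.46, −0.25 and 2.40 in WT (−2.54 ± 0.43 SE, adjusted p = 0.00962), with the same overlap at KO2 replicate 4. Aurkb, the kinase of the complex, differed by −4.53 ± 0.63 (SE, adjusted p = 1.79e-04) on low iodine and, with 1 of 5 KO2 arrays well above background, by −2.75 ± 0.57 (SE, adjusted p = 0.0209) on the normal diet.

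Among mitotic entry kinases and regulators 6 of 7 fell on low iodine (median −4.87) and 5 of 7 on the normal diet (median −2.79). Aurka, the centrosomal Aurora kinase, had low-iodine levels of −0.16, −1.06, −0.84 and −0.25 in KO2 and 2.05, 1.47, 2.21 and 1.81 in WT (−2.46 ± 0.39 SE, adjusted p = 5.23e-04). Normal-diet levels of Aurka were −1.49, −1.33, −1.41, −0.45 and −1.51 in KO2 and 0.32, 0.32, −0.31, −0.85 and 1.51 in WT and narrowly missed the threshold (−1.44 ± 0.35 SE, adjusted p = 0.0542). It passed in 7 of 30 alternatives. Plk1, a kinase that drives centrosome maturation and mitotic entry, read −0.60, −1.31, −1.21 and −0.77 in KO2 and 2.03, 1.49, 1.85 and 1.71 in WT on low iodine (−2.74 ± 0.55 SE, adjusted p = 0.00334). Normal-diet levels of Plk1 were −4.10, −3.12, −3.61, −1.76 and −3.86 in KO2 and −0.20, −0.52, −1.27, −1.85 and 1.35 in WT, a difference of −2.79 ± 0.50 (SE, adjusted p = 0.0103) that is close to the low-iodine one. Cdc25c, the phosphatase that activates Cdk1, had low-iodine levels of −3.70, −3.81, −3.78 and −4.23 in KO2 and −3.19, −1.34, −2.72 and −3.39 in WT. The arrays did not overlap, yet WT varied and the gene did not pass (−1.22 ± 0.52 SE, adjusted p = 0.131). Normal-diet levels of Cdc25c were −5.56, −6.09, −7.02, −5.37 and −7.72 in KO2 and −4.79, −4.53, −5.12, −5.19 and −3.47 in WT (−1.73 ± 0.46 SE, adjusted p = 0.0792), with 1 of 5 KO2 arrays well above background. The second Cdc25c probe gave −5.52 ± 0.54 (SE) on low iodine.

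Nek2, a kinase of centrosome separation, differed by −6.06 ± 0.75 (SE, adjusted p = 6.21e-05) on low iodine and −2.83 ± 0.67 (SE, adjusted p = 0.0455) on the normal diet, where 1 of 5 KO2 arrays was well above background and 22 of 30 alternatives lost the call. Melk, a kinase of proliferating cells, had a spot well above background on 0 of 4 KO2 and 4 of 4 WT low-iodine arrays, and was at least 52.7-fold lower in KO2 (adjusted p = 5.35e-06). This bound sets the mean of the WT arrays against the lowest measurable signal on each KO2 array, or the probe's own value where that is higher. Pbk, a mitotic kinase, differed by −5.35 ± 0.89 (SE, adjusted p = 7.46e-04) on low iodine and −4.83 ± 0.79 (SE, adjusted p = 0.00822) on the normal diet, where 1 of 5 KO2 arrays was well above background. Cdca3, a regulator of mitotic entry, differed by −4.87 ± 0.54 (SE, adjusted p = 2.68e-05) on low iodine and −3.03 ± 0.48 (SE, adjusted p = 0.00695) on the normal diet. A second, dimmer Cdca3 probe, well above background on all 18 arrays, gave a smaller fall. It differed by −1.47 ± 0.40 (SE) on low iodine and −1.74 ± 0.36 (SE) on the normal diet (limma over 26519 probes, adjusted p = 0.0223 and 0.0242).

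The 3 spindle microtubule proteins were called on both diets. Tpx2, which activates Aurka and nucleates spindle microtubules, had low-iodine levels of −2.51, −2.96, −3.66 and −3.06 in KO2 and 0.81, 0.69, 1.43 and 1.00 in WT (−4.03 ± 0.52 SE, adjusted p = 9.47e-05). Normal-diet levels of Tpx2 were −3.85, −4.07, −4.48, −2.91 and −4.67 in KO2 and −1.54, −2.0, −2.68, −3.25 and −0.11 in WT, with KO2 replicate 4 above WT replicate 4 (−2.08 ± 0.47 SE, adjusted p = 0.0353). Both diets thus gave a fall, the second with overlap. Nusap1, a microtubule bundler, read −2.28, −2.55, −2.11 and −2.69 in KO2 and 1.44, 1.30, 1.82 and 1.29 in WT on low iodine (−3.87 ± 0.59 SE, adjusted p = 3.51e-04). Normal-diet levels of Nusap1 were −5.47, −5.12, −5.97, −3.36 and −5.15 in KO2 and −2.06, −2.03, −2.69, −3.44 and 0.07 in WT, with KO2 replicate 4 level with WT replicate 4 (−2.98 ± 0.53 SE, adjusted p = 0.00999). Hmmr, which helps hold the spindle pole together, differed by −2.41 ± 0.72 (SE, adjusted p = 0.0321) on low iodine and −3.82 ± 0.64 (SE, adjusted p = 0.00953) on the normal diet. The normal-diet value rests on dim spots, as 1 of 5 KO2 arrays was well above background. The interaction did not pass (1.41 ± 0.96 SE, adjusted p = 0.545), 8 of 30 alternatives lost the low-iodine call, and a second Hmmr probe gave −3.86 on low iodine and −1.26 on the normal diet.

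Chromosome structure genes were lower in 4 of 4 cases on low iodine and 3 of 4 on the normal diet. Mki67, which coats mitotic chromosomes and is the common marker of dividing cells, had low-iodine levels of −1.43, −1.44, −2.77 and −1.97 in KO2 and 3.6, 3.37, 3.88 and 3.71 in WT (−5.54 ± 0.60 SE, adjusted p = 2.44e-05). The fall was 46.6-fold. Normal-diet levels of Mki67 were −3.41, −2.71, −2.76, −0.71 and −2.66 in KO2 and 1.09, 1.04, 0.04, −0.50 and 2.75 in WT (−3.34 ± 0.54 SE, adjusted p = 0.00744) and did not overlap, with KO2 replicate 4 just under WT replicate 4. Ncapg, a condensin I subunit, read −2.36, −2.68, −2.49 and −2.77 in KO2 and 1.09, 1.09, 1.25 and 1.05 in WT on low iodine (−3.70 ± 0.66 SE, adjusted p = 0.00132). Normal-diet levels of Ncapg were −5.22, −4.41, −5.44, −2.36 and −5.65 in KO2 and −1.22, −1.04, −2.07, −2.35 and 0.95 in WT (−3.47 ± 0.59 SE, adjusted p = 0.00958), so by its brightest probe the differences on the 2 diets were close. A second Ncapg probe, well above background on 8 arrays, gave −3.12 ± 0.65 (SE) on low iodine. On the normal diet that probe gave −1.60 ± 0.58 (SE) and did not pass (limma over 26519 probes, adjusted p = 0.242). Ncaph, another subunit of the same complex, had low-iodine levels of −3.88, −4.94, −4.20 and −4.33 in KO2 and −1.67, −1.11, −1.28 and −1.31 in WT (−3.0 ± 0.33 SE, adjusted p = 2.52e-05). Normal-diet levels of Ncaph were −4.39, −4.48, −4.35, −4.44 and −5.08 in KO2 and −3.47, −3.60, −4.06, −4.11 and −2.30 in WT, all KO2 arrays lower, but the gene did not pass (−1.04 ± 0.29 SE, adjusted p = 0.0951). Top2a, the topoisomerase that untangles sister chromatids, differed by −5.76 ± 0.58 (SE, adjusted p = 1.21e-05) on low iodine and −2.85 ± 0.52 (SE, adjusted p = 0.0112) on the normal diet.

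All 6 measured cytokinesis genes of the set were called lower on low iodine and 3 of 6 on the normal diet. The medians were −5.24 and −1.84, and the low-iodine one rests in part on Cep55, Shcbp1 and Iqgap3, which were at or near background in KO2. Ect2, the exchange factor that activates RhoA at the cleavage furrow, had low-iodine levels of −1.31, −1.39, −1.48 and −2.31 in KO2 and 2.72, 2.16, 2.86 and 2.52 in WT, an 18.2-fold fall (−4.19 ± 0.38 SE, adjusted p = 5.35e-06). Normal-diet levels of Ect2 were −2.21, −2.61, −2.82, −1.32 and −2.82 in KO2 and −0.38, −0.79, −1.33, −1.46 and 0.25 in WT (−1.61 ± 0.34 SE, adjusted p = 0.0238). A second Ect2 probe, well above background on 8 arrays, gave −4.57 ± 0.45 (SE) on low iodine but 0.02 ± 0.40 (SE) on the normal diet. Racgap1, the centralspindlin subunit that binds Ect2, read −3.80, −2.82, −2.01 and −3.41 in KO2 and 0.26, 0.19, 0.74 and 0.32 in WT on low iodine (−3.39 ± 0.41 SE, adjusted p = 4.83e-05). Normal-diet levels of Racgap1 were −4.17, −4.39, −4.69, −3.46 and −5.09 in KO2 and −3.14, −3.19, −3.36, −3.97 and −2.19 in WT, overlapping, and did not pass (−1.19 ± 0.36 SE, adjusted p = 0.129). Anln, a scaffold of the contractile ring, differed by −3.28 ± 0.52 (SE, adjusted p = 5.27e-04) on low iodine and −0.96 ± 0.47 (SE, adjusted p = 0.398) on the normal diet, where 1 of 5 KO2 and 3 of 5 WT arrays were well above background.

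The other 3 cytokinesis genes were at or near background in KO2 on low iodine, so their fitted differences rest on dim spots. Cep55, which recruits the abscission machinery, differed by −7.21 ± 0.64 (SE, adjusted p = 5.35e-06) on low iodine, with 1 of 4 KO2 arrays well above background, and by −2.89 ± 0.57 (SE, adjusted p = 0.0162) on the normal diet. Shcbp1, a partner of centralspindlin, was well above background on 0 of 4 KO2 and 4 of 4 WT low-iodine arrays and was at least 43.8-fold lower in KO2 (adjusted p = 1.39e-06). Its KO2 values there were −6.66, −7.91, −7.56 and −7.10 and its WT values −0.20, −0.12, 0.33 and 0.08. Normal-diet arrays measured Shcbp1 above background in 4 of 5 KO2 samples, and it differed by −3.07 ± 0.46 (SE, adjusted p = 0.00448). Iqgap3, a scaffold protein of proliferating cells, differed by −6.30 ± 0.72 (SE, adjusted p = 3.44e-05) on low iodine, with 1 of 4 KO2 arrays well above background, and did not pass on the normal diet (−2.07 ± 0.64 SE, adjusted p = 0.138).

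Mxd3, a MAX-binding transcriptional repressor and not part of the division machinery, had its larger difference on the normal diet. Low-iodine levels of Mxd3 were −1.37, −1.28, −1.49 and −1.02 in KO2 and −0.97, −0.56, −1.04 and −0.85 in WT, overlapping (−0.44 ± 0.65 SE, adjusted p = 0.732). Normal-diet levels of Mxd3 were −5.30, −7.28, −7.27, −4.52 and −6.82 in KO2 and −3.64, −3.05, −3.85, −3.96 and −0.78 in WT, without overlap (−3.18 ± 0.58 SE, adjusted p = 0.0110). Its interaction did not pass (2.75 ± 0.87 SE, adjusted p = 0.142). A second Mxd3 probe was lower in KO2 on both diets, at −2.09 ± 0.61 (SE, adjusted p = 0.0320) on low iodine and −2.45 ± 0.55 (SE, adjusted p = 0.0383) on the normal diet.

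Whether the genotype difference itself differed between the diets was tested by the genotype by diet interaction, the low-iodine difference minus the normal-diet one. Each diet lies on its own array set, so a change of this difference with diet and one with array set cannot be told apart. The interaction was called for 10 of 37 genes, all more negative on low iodine, where 0.865% of all genes were called in that direction and 0.357% in the other. The median was −1.95, beside −0.04 over all genes. Cytokinesis supplied 4 of the 10 (Ect2, Cep55, Shcbp1 and Iqgap3) and the checkpoint and anaphase-promoting group 3 (Bub1, Ttk and Cdc20). Cenpa, Melk and Ncaph were the others. For Ttk the value was −4.92 ± 0.81 (SE, adjusted p = 0.00840), with 0 of 5 KO2 and 1 of 5 WT normal-diet arrays well above background. Shcbp1 had the smallest p of the 10 (−4.27 ± 0.68 SE, adjusted p = 0.00661), with spots well above background on 0 of 4 KO2 low-iodine arrays. Cdc20, well above background on all 18 arrays, gave −2.77 ± 0.52 (SE, adjusted p = 0.0156), and Ect2 gave −2.58 ± 0.51 (SE, adjusted p = 0.0225). For Plk1 the value was 0.05 ± 0.74 (SE, adjusted p = 0.985) and for Ncapg −0.22 ± 0.89 (SE, adjusted p = 0.937), neither of which passed. Of the 10 calls, only that of Ttk held in every alternative run for it (28, as it fails the filter of 9 arrays above background). With slide as a block 8 genes were called, beside 163 of all 17929 genes called in that direction. The dimmer probe had the opposite sign for 5 genes, at −4.61 for Cdc25c, −2.6 for Hmmr, −1.03 for Cenpf, 0.27 for Cdca3 and 0.45 for Cdca8, where the brighter ones gave 0.51, 1.41, 0.23, −1.84 and −2.27. Counts of calls ran from 2 to 22 over the alternatives, from 3 with median scaling to 22 with quantile normalization, and were 18 without WT replicate 5 of the normal diet.

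Within a genotype, the diets can be set side by side only with the reservation that each lies on its own array set. In WT thyroids 33 of 37 genes were higher on low iodine than on the normal diet, 1 was lower and 3 did not pass, where 39.4% of all genes were called higher and 36.5% lower. The median was 2.61, beside 0.08 over all genes, or 1.62 with median scaling. Under median scaling 23 genes were called higher and the median of all genes was −0.91. Bub1 was the lower one (−1.57 ± 0.16 SE, adjusted p = 1.62e-07), and Cenpe, Bub1b and Cdca3 did not pass. Ttk differed by 7.24 ± 0.57 (SE, adjusted p = 5.38e-09) and Anln by 6.33 ± 0.50 (SE, adjusted p = 4.77e-09), against normal-diet spots above background on 1 of 5 and 3 of 5 WT arrays. In KO2 thyroids 14 genes were higher, 5 were lower and 18 did not pass, where 37.5% of all genes were higher and 36.9% lower. The median of 0.73 turned to −0.08 with median scaling and −0.14 with quantile normalization, so no direction is given for the set. Cenpe, Bub1, Cdc20, Cdca3 and Shcbp1 were the lower ones, while Mxd3 (4.95 ± 0.61 SE, adjusted p = 1.48e-06) and Anln (4.01 ± 0.50 SE, adjusted p = 1.44e-06) were higher, against normal-diet spots above background on 2 of 5 and 1 of 5 KO2 arrays. Arrays did not overlap between diets for 26 genes higher and 1 lower in WT (34.6% and 32.2% of all genes), and for 9 higher and 6 lower in KO2 (33.4% and 31.4%).

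Other genes of the same machinery were compared through lists of 125 further measured genes. Of these 48 were lower and 5 higher in KO2 on low iodine (median −0.39), and 13 were lower and 1 higher on the normal diet (median −0.17). Among 31 other kinetochore and centromere genes 19 were lower and Zwint was higher on low iodine, and 7 were lower on the normal diet. The smallest p-values belonged to Cenps, an inner kinetochore subunit (−2.71 ± 0.29 SE), Spag5, a spindle and kinetochore protein (−4.10 ± 0.47 SE), and Nsl1, a subunit of the MIS12 complex (−4.33 ± 0.54 SE). Of 15 other checkpoint and separase genes 6 were lower on low iodine and 2 on the normal diet. They were led by Kntc1, of the complex that brings dynein to kinetochores (−3.39 ± 0.29 SE), the checkpoint protein gene Mad2l1 (−2.17 ± 0.29 SE) and the cohesin guardian Sgo2a (−3.12 ± 0.43 SE).

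**Figure D4:**
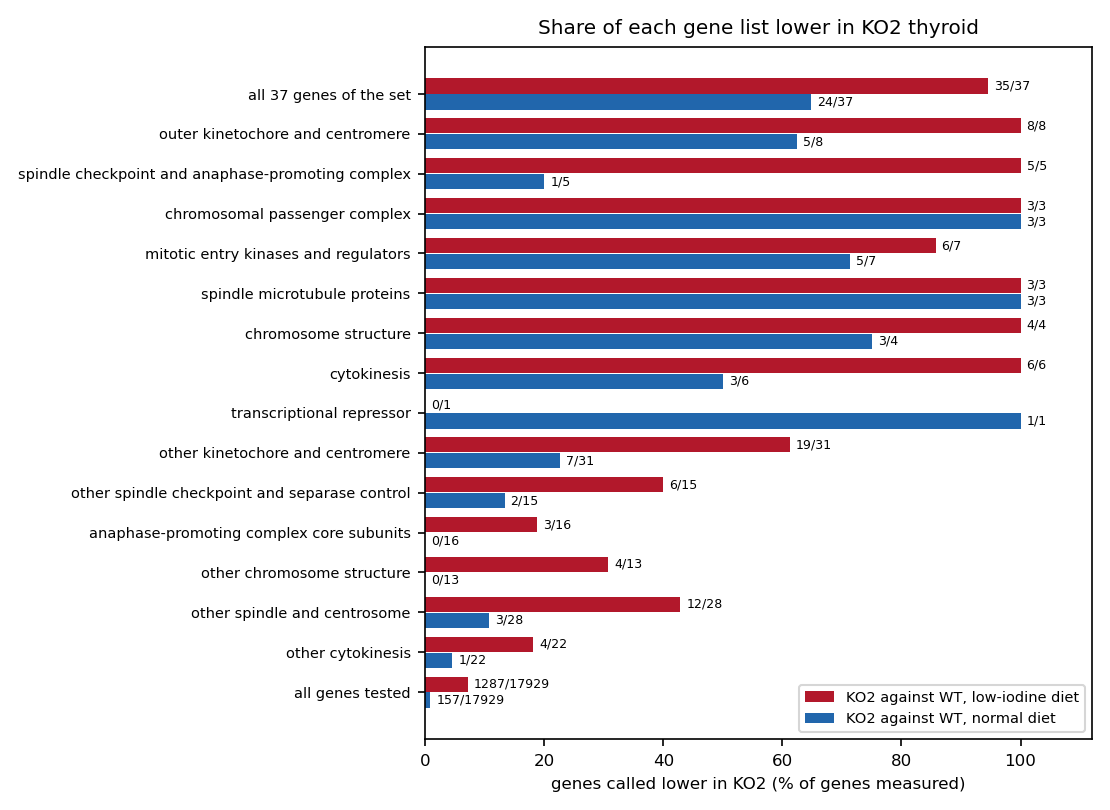
Share of measured genes called lower in KO2 (adjusted p under 0.05) on the low-iodine diet and the normal diet, for the set, its groups, 6 lists of other genes of the same machinery and all genes tested; labels give called over measured genes. The set reaches 35 of 37 on low iodine, while core subunits of the anaphase-promoting complex reach 3 of 16.

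Of 16 core subunits and enzymes of the anaphase-promoting complex 3 were lower on low iodine, where 7.18% of all genes were: Cdc23 (−0.56 ± 0.13 SE), Anapc15 (−0.70 ± 0.18 SE) and Ube2s (−0.52 ± 0.17 SE), with a list median of −0.07. None of the 16 was called on the normal diet (limma), where 2 had an unadjusted p under 0.05. Of 13 other chromosome structure genes 4 were lower and 2 higher on low iodine, and 0 were called on the normal diet, where 4 had an unadjusted p under 0.05. The condensin gene Ncapg2 (−1.93 ± 0.26 SE) and Smc2, shared by both condensins (−1.64 ± 0.31 SE), were lower, and the cohesin gene Stag1 was higher (1.04 ± 0.20 SE). Among 28 other spindle and centrosome genes 12 were lower and 1 higher on low iodine, with Ckap2l (−5.27 ± 0.58 SE) and Ckap2 (−3.48 ± 0.45 SE), both microtubule-associated, and the passenger complex scaffold Incenp (−1.97 ± 0.27 SE) first by p. Of these 28, 3 were lower and 1 was higher on the normal diet. Of 22 other cytokinesis genes 4 were lower and 1 higher on low iodine and 1 was lower on the normal diet. Mtfr2, a mitochondrial fission regulator (−1.78 ± 0.34 SE), and the septin gene Septin9 (−0.84 ± 0.19 SE) were lower, and the formin gene Diaph1 was higher (0.76 ± 0.15 SE).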

How the data were processed

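RNA from 18 mouse thyroids (50 ng each, amplified and labelled with Cy3, per the labels' protocols) was read on 1-colour Agilent arrays. The deposited files give, per the file headers, processed signal intensity from Agilent Feature Extraction (12.0.0.7 for normal-diet and 12.0.3.1 for low-iodine arrays). The series matrix holds the authors' values, used as an alternative. From these, log2 of the processed signal minus the array's 75th percentile was computed. Of 41174 probes 28223 (68.5%) matched 1 gene by accession, 12951 matched none, and 82 were left out because every spot was marked as an outlier on some array. A probe was kept if 4 or more of the 18 arrays had it well above background, and the brightest probe stood for a gene, which left 17929 genes. Group means were compared with limma 3.58.1 (R 4.3.3), with Benjamini-Hochberg adjustment over all genes and a threshold of 0.05. Values of single probes come from the same model over 26519 probes. No spot was saturated, and no 2 arrays held identical values. The number of arrays limits the precision, and p-values measure the spread between these samples. Simulated data over 17929 genes held genes changed by 2 on the log2 scale. Of these, 89% were recovered on the normal diet and 85% on low iodine. In the real data the mean level over the measured genes of the set varied more on the normal diet. Its SD was 0.72 in KO2 and 0.95 in WT there, against 0.19 and 0.15 on low iodine. Recovery under such unequal spread was not tested, so the 89% may not hold for these normal-diet arrays. Alternatives changed the scaling, background, filter, probe choice, blocks, covariate and arrays left out. Levels on every array are given for up to 2 genes per role, those measured on the most arrays and then the brightest, and for any gene whose call or direction differed from most of its role. From other lists, up to 3 called genes with the smallest p on low iodine are named. Zwint was named after its value was seen. The members and lists were chosen with earlier results of these data known.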

Additional observations from a re-analysis of the deposited data

Results flagged for a closer look

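Single arrays stood far from the rest of their group in 10 of 152 groups of values, where chance gives about 1 in 20. Among normal-diet arrays KO2 replicate 4 was high for Aurka (−0.45, against −1.51 to −1.33 in the other KO2 arrays), Cdca3 (−1.76, against −4.11 to −3.54), Mki67 (−0.71, against −3.41 to −2.66) and Shcbp1 (−3.62, against −5.55 to −5.25). It was also high for the mean over the 37 genes (−2.92, against −4.69 to −4.25). KO2 replicate 3 was low for Spc25 (−2.45, against −1.68 to −1.49) and KO2 replicate 5 was low for Ncaph (−5.08, against −4.48 to −4.35). WT replicate 5 was high for Ndc80 (−2.38, against −4.71 to −4.11) and Mxd3 (−0.78, against −3.96 to −3.05). On low iodine WT replicate 2 was low for Nek2 (0.68, against 1.13 to 1.21).

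The difference between KO2 and WT itself differed between diets, each on its own array set, for 10 genes by the interaction test. The log2 value of the interaction was −4.27 for Shcbp1, −4.92 for Ttk, −2.77 for Cdc20, −2.58 for Ect2, −4.31 for Cep55, −3.59 for Cenpa, −1.96 for Ncaph, −3.14 for Melk, −4.23 for Iqgap3 and −0.98 for Bub1. Ttk was well above background on 0 of 5 KO2 and 1 of 5 WT normal-diet arrays, so its value rests on dim spots. Shcbp1 and Melk were so on 0 of 4 KO2 low-iodine arrays. Of these calls, that of Bub1 was lost in 25 of 29 alternatives, Ncaph in 19, and Melk and Iqgap3 in 17 each.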

How the results depend on the processing

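On low iodine 34 of 35 calls held in every alternative run for them, Hmmr being the exception, and all 37 differences stayed negative. There were 30 alternatives, or 29 for Ttk, which fails the filter of 9 arrays above background. Of the 24 normal-diet calls 0 held in all 30. The count there was 0 with that diet's arrays alone and 15 with the thymocyte marker mean as a covariate, and its median was −1.15 with normexp. The low-iodine median was −4.75 with quantile normalization, −4.37 without scaling and −2.72 with normexp. The interaction count was 3 with median scaling, 22 with quantile normalization (median −2.95), 17 with normexp, 16 with the thymocyte covariate and 18 without WT replicate 5 and KO2 replicate 4 of the normal diet together, an alternative chosen after seeing the data. The WT diet median was 1.62 with median scaling. In KO2, 9 genes were higher on low iodine with median scaling (median −0.078), 8 with quantile normalization (median −0.14) and 22 without those 2 arrays. Normexp used the median spot signal, also chosen after seeing the data; normexp on the mean signal was not run, because the mean column was not used here. The causes were not tested.

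Leaving out 1 array at a time gave 17 to 28 calls (medians −2.63 to −1.96) on the normal diet, 34 to 35 (−4.28 to −4.03) on low iodine, and 5 to 18 (−2.27 to −1.62) for the interaction. The last count was 18 without WT replicate 5 of the normal diet. It was 5 or 6 without WT replicate 2, 3 or 4 or KO2 replicate 2 or 3 of the normal diet, or without any 1 WT array or KO2 replicate 2 or 4 of low iodine. Diet counts were 31 to 34 in WT (medians 2.30 to 2.95) and 14 to 20 in KO2 (0.62 to 0.99). Same-numbered arrays did not pair (correlations −0.04 to 0.32, own number best in 4 of 9); a replicate block gave 9 calls on the normal diet, 34 on low iodine and 2 for the interaction.

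Values that did not pass turned sign for 10 results on single genes. On the normal diet Bub1 gave −0.018 with median scaling, −7.73e-04 with quantile normalization, −0.15 without scaling, −1.76 over the mean of probes (called lower, adjusted p = 0.0189), −0.0028 with the thymocyte covariate, −0.14 without the 2 arrays, and −0.077 to 0.12 leaving out 1. Bub1b gave 0.15 with the covariate, 0.46 without the 2 arrays and −0.44 to 0.29 leaving out 1. Ttk gave 0.070 with normexp, 0.55 with the covariate, 0.025 without the 2 arrays and −0.41 to 0.39 leaving out 1, and Anln 0.024 with normexp. For the interaction Cenpf gave −1.21 with quantile normalization, −1.19 with normexp, −0.40 over the mean of probes, −0.40 with the covariate and −0.38 to 1.07 leaving out 1. Plk1 gave −0.67 with quantile normalization, −0.057 without scaling, −0.37 with normexp, −0.55 with the covariate, −0.026 without the 2 arrays and −0.41 to 0.43 leaving out 1. Cdc25c gave −0.021 with quantile normalization, −0.42 with normexp, −2.05 over the mean of probes and −0.011 with the covariate. Pbk gave 0.067 without the 2 arrays and −1.06 to 0.41 leaving out 1, Hmmr −0.43 with normexp and −0.60 over the mean of probes, and Ncapg −0.75 to 0.34 leaving out 1. Without scaling the all-gene median on low iodine was −0.29, and 86.5% of all calls were lower, against 47.9% as reported. For the normal diet that share was 90.6% without scaling and 73.1% with median scaling, against 63.1% as reported.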
